A study of Homo sapiens with 16 samples.

Results

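Translational efficiency (TE) is the number of ribosome footprints an mRNA carries relative to its abundance, and here it was compared between MDA-MB-231 cells carrying a CRISPRi guide against the isoleucine tRNA with anticodon GAU (the Ile GAU guide) and cells carrying a guide against eGFP. MDA-MB-231 is a triple-negative breast cancer cell line with mesenchymal features, and the labels give the source as a xenograft cell line grown in dishes without further treatment. All 16 of the 16 libraries entered the comparison. With the Ile GAU guide there were 4 ribosome-protected fragment (footprint) libraries and 4 total RNA libraries, and with the eGFP guide another 4 of each. Within each of these arms, 2 libraries came from cells with a tRNAIleUAU overexpression construct and 2 from cells with a Control construct, so that the 2 constructs were pooled and construct was a term of the model within each assay. All cells thus carried a guide and a construct, and the labels do not say whether a line was a clone or a pool, or whether replicates came from separate cultures. The p-values therefore measure the spread between these libraries, which may be technical. The stated aim of the study was to follow ribosome occupancy on mRNAs rich in isoleucine codons when these tRNAs are changed.

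Isoleucine is read by tRNAs of several anticodons: tRNAs with anticodon GAU or its inosine counterpart read the codons AUU and AUC, and the tRNA with anticodon UAU reads the rare codon AUA. CRISPRi lowers transcription by placing a catalytically dead Cas9, usually fused to a repressor domain, on the target gene. In ribosome profiling, a footprint change matched by the same change in mRNA leaves translational efficiency as it was, while a footprint change without one alters it. A high footprint density can come from frequent initiation or from slow elongation, which footprint counts per gene do not tell apart.

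The tables hold read counts per gene symbol. Footprint libraries held 639320 to 938909 counts on genes with the Ile GAU guide and 358340 to 607919 with the eGFP guide. Total RNA libraries held 2743415 to 5446599 and 2512247 to 3866467 counts. Counts in both assays were found for 13119 symbols, and 8012 passed the filter on low counts in both assays and were tested. The mesenchymal markers VIM, CD44, AXL, CAV1, MSN and ANXA1 were abundant in both assays, while ESR1, CDH1 and FOXA1 had at most 5 counts over the 8 libraries of either assay and CD3E, CDH5 and DCN had 0. Of the other markers of immune, endothelial and fibroblast cells, PECAM1 had 202, COL1A1 219 and PDGFRB 74 counts over the total RNA libraries, at no more than 10.6 CPM in any of them. Of the epithelial markers, ERBB2 reached 56.4 and EPCAM 21.9 counts per 1000000 counts on genes after TMM scaling (CPM) in total RNA. The targeted tRNA is not among the gene symbols, so the knockdown itself could not be checked. In total RNA, the 2 replicates of the Ile GAU guide with the tRNAIleUAU construct lay at opposite ends of the first principal component, which held 53.1% of the variance, with scores of 34.6 and -21.2. They correlated at 0.954 with each other, against 0.988 to 0.991 in the other total RNA groups. Replicate 1 of the eGFP guide with that construct, at -18.7, lay near replicate 2, and the other 5 libraries ran from -3.01 to 10.5. Some results that rest on the pair with the Ile GAU guide are also given without 1 or both of them. Other values include both. In footprints, replicate 1 of the eGFP guide with the tRNAIleUAU construct, the shallowest library, lay apart from the other 7.

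No gene passed the test for a change in translational efficiency with the Ile GAU guide. In edgeR's quasi-likelihood test with Benjamini-Hochberg adjustment over 8012 genes, 0 genes (0%) had an adjusted p under 0.05 and the lowest adjusted p was 0.834. At an unadjusted p under 0.05 there were 412 genes (5.14%), of which 203 were higher (2.53%) and 209 lower (2.61%) with the Ile GAU guide. DESeq2 with the same design called 0 genes (226 at an unadjusted p under 0.05), and limma-voom with weights by assay also called 0 (380 unadjusted). The median standard error of a gene's efficiency difference was 0.24 on the log2 scale, and the median 95% interval reached 0.51 to either side, a 1.42-fold change. For 6047 genes (75.5%) the whole interval lay within 1 log2 unit of 0, a 2-fold change in either direction. For the other genes the interval reached past that size.

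The same held within each construct. With the tRNAIleUAU construct 0 genes passed in edgeR (332 unadjusted, 4.14%) and with the Control construct 0 passed (265 unadjusted, 3.31%). The test of the difference between the constructs also passed for 0 genes (203 unadjusted, 2.53%). One library decides the values for the tRNAIleUAU construct. Without replicate 2 of the total RNA libraries of the Ile GAU guide with that construct, 616 genes passed for the tRNAIleUAU construct and 99 for the difference between constructs. Its replicate 1 then stood alone and was assumed to vary like the other groups. With constructs pooled, the count stayed at 0 without that library (1270 unadjusted), without replicate 1 (295 unadjusted) and without both (544 unadjusted).

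**Figure D1:**
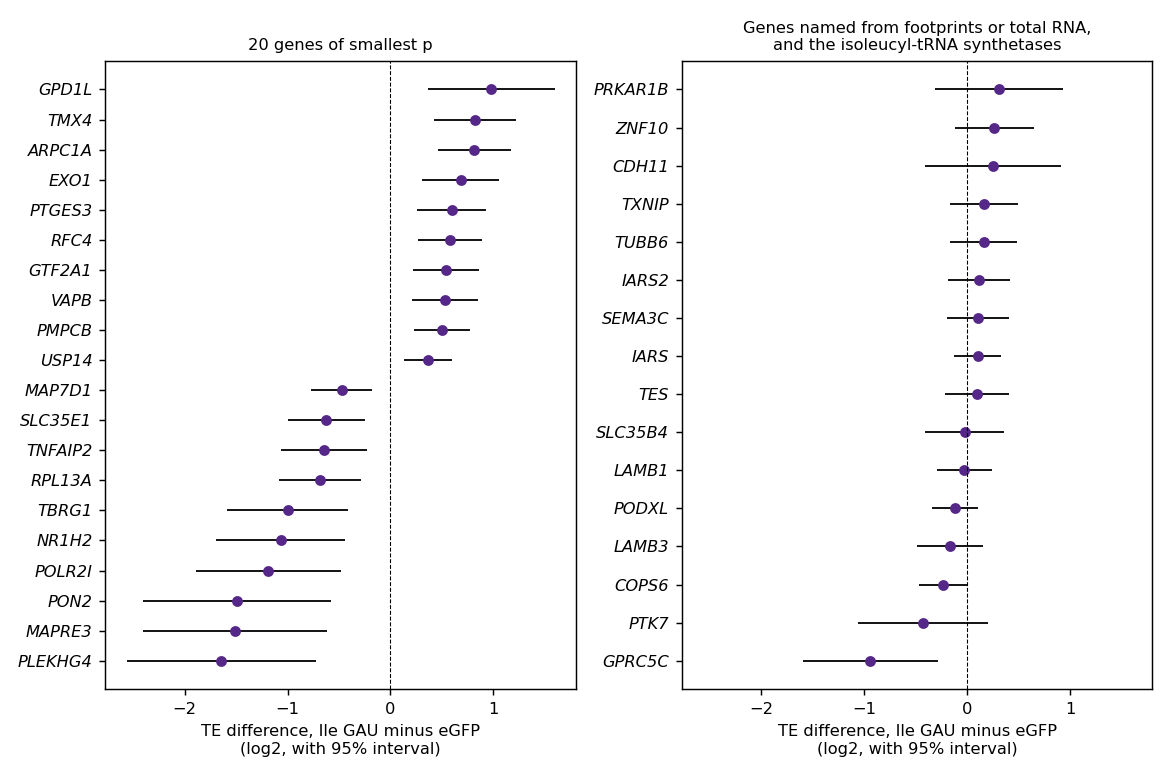
Differences in translational efficiency, Ile GAU guide minus eGFP guide, on the log2 scale (points) with 95% intervals (lines), for the 20 genes of smallest p (left) and for the genes named from the footprint or total RNA tests with the 2 isoleucyl-tRNA synthetases (right). The intervals on the left exclude 0 because the genes were ranked by p, and none passes after adjustment over 8012 genes. On the right all intervals but that of GPRC5C hold 0.

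The 20 genes of smallest p are given as values only, since all had an adjusted p of 0.834 in edgeR. Of these, 10 were higher and 10 lower with the Ile GAU guide, and all 20 had the same sign within both constructs, which the ranking itself favours. The first was ARPC1A (chr7:99325898-99366262, GRCh38.p14), which encodes a subunit of the Arp2/3 complex that nucleates branched actin. Its footprints were 79.1, 75.5, 78.9 and 92.3 CPM with the Ile GAU guide, against 64.5, 60.0, 50.5 and 75.3 CPM with the eGFP guide. In total RNA it had 78.8, 79.4, 91.7 and 75.5 CPM with the Ile GAU guide, against 122, 116, 102 and 112 CPM with the eGFP guide. In each set of 4 the first pair comes from the Control construct and the second from the tRNAIleUAU construct. Neither assay overlapped between guides, and the 2 assays moved in opposite directions. The efficiency difference of ARPC1A was 0.81 ± 0.17 (log2, SE), with a 95% interval that started at 0.46. Its total RNA difference of -0.47 passed (adjusted p = 0.00825, edgeR), and its footprint difference of 0.34 did not (adjusted p = 0.393). Leaving out any single library gave an efficiency difference of 0.72 to 0.91 and an adjusted p of 0.0609 to 0.944 in edgeR.

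TMX4, which encodes a thioredoxin-related transmembrane protein of the endoplasmic reticulum, had the same arrangement. Its footprints were 41.3, 32.4, 26.3 and 31.3 CPM with the Ile GAU guide and 24.8, 26.7, 19.6 and 25.7 CPM with the eGFP guide, where the ranges overlap slightly. Its total RNA was 104, 95.3, 94.7 and 97.3 CPM with the Ile GAU guide and 136, 140.1, 122 and 119.6 CPM with the eGFP guide, without overlap. Its efficiency difference was 0.82 ± 0.19 (log2, SE), and only its total RNA difference of -0.40 passed (adjusted p = 0.00798, edgeR).

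The other genes on the higher side varied in the share that lay in footprints. By a separate fit for each assay (given below), footprints of EXO1, PTGES3, GTF2A1 and VAPB differed by 0.48 to 0.61 (log2). Their total RNA differed by -0.08 to -0.02. RFC4, PMPCB, GPD1L and USP14 had 0.21 to 0.65 in footprints and -0.32 to -0.11 in total RNA. In that fit the footprints of PTGES3 and GTF2A1 passed (adjusted p = 0.00741 and 0.0312, edgeR), which they did not in the main fit. PMPCB, a subunit of the mitochondrial processing peptidase that removes import presequences, had 126, 131, 122 and 122 CPM in footprints with the Ile GAU guide and 116, 118, 104 and 94.2 CPM with the eGFP guide. In total RNA PMPCB had 85.3, 78.9, 70.6 and 78.6 CPM with the Ile GAU guide and 106, 93.5, 93.1 and 88.9 CPM with the eGFP guide, so that neither assay overlapped. Its efficiency difference was 0.50 ± 0.13 (log2, SE). EXO1, an exonuclease of mismatch repair and end resection, had footprints of 64.9, 70.8, 63.1 and 54.7 CPM with the Ile GAU guide and 43.0, 40.0, 50.5 and 37.7 CPM with the eGFP guide, without overlap, while its total RNA overlapped. The EXO1 efficiency difference was 0.68 ± 0.18 (log2, SE). RFC4, a subunit of the clamp loader of DNA replication, stood at 0.58 ± 0.15, PTGES3, the p23 co-chaperone of HSP90, at 0.59 ± 0.16, and GTF2A1, a subunit of transcription factor TFIIA, at 0.54 ± 0.15 (log2, SE). VAPB, a tether of the endoplasmic reticulum, was at 0.53, GPD1L at 0.98 and USP14, a deubiquitinase of the proteasome, at 0.37 on the log2 scale.

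On the lower side, several genes had few counts in 1 assay. PLEKHG4, a guanine nucleotide exchange factor, had 9.44, 14.4, 8.41 and 14.1 CPM in footprints with the Ile GAU guide and 24.8, 13.3, 16.8 and 27.4 CPM with the eGFP guide, which overlap. In total RNA PLEKHG4 had 9.48, 6.09, 5.35 and 5.39 CPM with the Ile GAU guide and 4.73, 3.66, 4.38 and 2.56 CPM with the eGFP guide, without overlap. Its efficiency difference of -1.65 ± 0.44 (log2, SE) was the most negative of the 20. MAPRE3, a protein that tracks growing microtubule ends, stood at -1.51 ± 0.43, and TBRG1 at -1.0 ± 0.28. TBRG1 differed in footprints (7.08, 9.59, 12.6 and 7.82 CPM with the Ile GAU guide, against 14.9, 25.0, 16.8 and 22.3 CPM with the eGFP guide), while its total RNA overlapped. In footprints PLEKHG4 and TBRG1 passed the filter on low counts only through libraries of the eGFP guide, which favours lower values with the Ile GAU guide. SLC35E1 stood at -0.62, TNFAIP2 at -0.65 and MAP7D1, a microtubule-associated protein, at -0.48 on the log2 scale.

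RPL13A, NR1H2, POLR2I and SLC35E1, 4 of the 20, lie on chromosome 19, which holds 496 of the 8012 genes tested. Another 3, ARPC1A, PMPCB and PON2, lie on chromosome 7, which holds 367 (4.58%). RPL13A, a protein of the large ribosomal subunit, had footprints of 253, 258, 274 and 282 CPM with the Ile GAU guide and 359, 363, 269 and 336 CPM with the eGFP guide, where only replicate 1 of the eGFP guide with the tRNAIleUAU construct falls among the Ile GAU values. Its total RNA was 433, 389, 563 and 334 CPM with the Ile GAU guide and 355, 339, 308 and 338 CPM with the eGFP guide, which overlap. The RPL13A efficiency difference was -0.69 ± 0.19 (log2, SE). NR1H2, the oxysterol receptor LXR beta, stood at -1.07 ± 0.30, and POLR2I, a subunit of RNA polymerase II, at -1.19 ± 0.33. In total RNA, replicate 1 of the Ile GAU guide with the tRNAIleUAU construct was the highest library for RPL13A (563 CPM), NR1H2 (28.0 CPM) and POLR2I (13.9 CPM). Without it their efficiency differences were -0.50, -0.80 and -0.87.

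Footprints and total RNA each changed with the guide, and the genes called in either mostly changed in the same direction in both. In bulk lysates, fewer cells with an mRNA and less of it per cell cannot be told apart. In footprints, 14 genes rose (0.175%) and 49 fell (0.612%), 63 in all (0.786%). In total RNA, 34 rose (0.424%) and 148 fell (1.85%), 182 in all (2.27%). All 63 genes called in footprints had the same sign in total RNA, against 56.0% of the 8012 genes tested, and 43 of them also passed there. Of the 182 genes called in total RNA, 176 had the same sign in footprints. That share was lower without replicate 2 of total RNA of the Ile GAU guide with the tRNAIleUAU construct, where more genes were called. Over all genes tested, the footprint and total RNA differences correlated at 0.27 (Pearson), and outside chromosome 7 at 0.16. The genes that rose in footprints had a median difference of 0.49 in footprints and 0.45 in total RNA, and those that fell had -0.65 and -0.48 (log2). The efficiency interval held 0 for 55 of the 63. Over all 8012 genes, 412 (5.14%) had an unadjusted p under 0.05 in efficiency (edgeR), which is when that interval leaves out 0.

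These counts depend on the spread that both assays share in the model. The biological coefficient of variation was 6.86% in footprints and 13.8% in total RNA when each was fitted alone, and the fit of both gave a value between these. With a fit for each assay, an alternative added after the data were seen, 205 genes were called in footprints, of which 183 had the same sign in total RNA, and efficiency calls remained at 0 (453 unadjusted). In that fit the total RNA calls of IFIT2, CYR61, GARS, ITGA5, CCT4, COPS6, AIMP2 and S100A4 were lost, with adjusted p from 0.0551 (IFIT2) to 0.212 (S100A4) in edgeR. Without both total RNA libraries of the Ile GAU guide with the tRNAIleUAU construct, 171 genes were called in footprints, 155 of them with the same sign in total RNA, and 208 in total RNA. All 63 genes were among the calls in both settings.

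**Figure D2:**
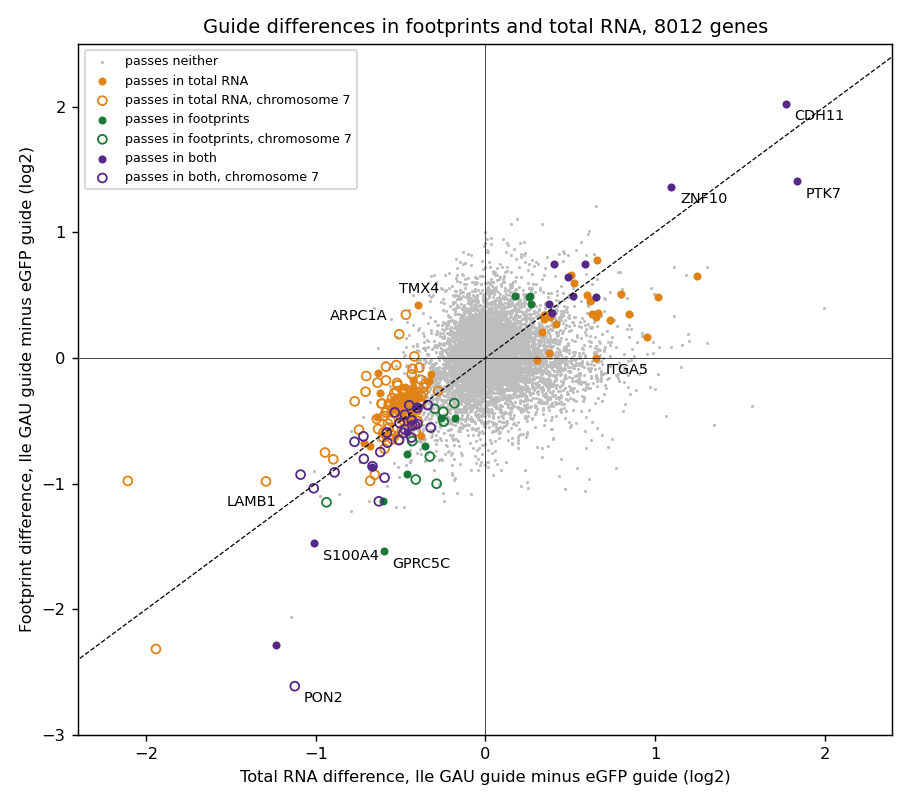
Difference between the Ile GAU guide and the eGFP guide in footprints (vertical axis, log2) against that in total RNA (horizontal axis, log2) for the 8012 genes tested; the dashed line marks equal differences, that is no difference in translational efficiency. Filled points pass at an adjusted p under 0.05 in the assay named in the legend, and open circles are such genes on chromosome 7. The called genes lie along the dashed line in the lower left and upper right, with ARPC1A and TMX4 to the left of it.

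Among the genes that rose in both assays, CDH11 had the largest rise in footprints. It encodes cadherin-11, a cell adhesion protein of mesenchymal cells (chr16:64943753-65123744). Its footprints were 104, 85.1, 72.6 and 70.4 CPM with the Ile GAU guide and 19.8, 20.0, 22.4 and 20.5 CPM with the eGFP guide. Its total RNA was 89.7, 76.6, 64.0 and 70.6 CPM with the Ile GAU guide and 16.2, 16.6, 27.5 and 27.1 CPM with the eGFP guide. No library of one guide reached those of the other in either assay. CDH11 rose by 2.03 ± 0.25 in footprints (adjusted p = 0.000456) and by 1.77 ± 0.16 in total RNA (adjusted p = 5.3e-06, edgeR), and its efficiency difference was 0.26 ± 0.31, with a 95% interval of -0.40 to 0.92 (log2).

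PTK7, a receptor-like pseudokinase of planar cell polarity, had footprints of 93.2, 82.7, 104 and 86.0 CPM with the Ile GAU guide and 34.7, 35.0, 36.5 and 32.5 CPM with the eGFP guide. In total RNA PTK7 had 36.1, 34.0, 51.9 and 27.7 CPM with the Ile GAU guide and 8.67, 13.3, 9.55 and 10.2 CPM with the eGFP guide. Neither assay overlapped, and PTK7 rose by 1.41 in footprints (adjusted p = 0.00482) and by 1.84 in total RNA (adjusted p = 2.62e-05, edgeR), with an efficiency difference of -0.43 ± 0.30 (log2, SE). Without replicate 1 of total RNA of the Ile GAU guide with the tRNAIleUAU construct, that efficiency difference was -0.16. ZNF10 is the zinc finger protein whose KRAB domain serves as the repressor in widely used CRISPRi fusions, and the labels do not state which fusion these cells carry. ZNF10 footprints were 504, 479.7, 409 and 622 CPM with the Ile GAU guide and 182, 158, 239 and 212 CPM with the eGFP guide. ZNF10 rose by 1.36 in footprints (adjusted p = 3.76e-05) and by 1.10 in total RNA (adjusted p = 6.72e-05, edgeR), with an efficiency difference of 0.27 ± 0.18 (log2, SE). Reads from a KRAB fusion and from ZNF10 itself cannot be told apart in these tables.

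TXNIP, an arrestin that restrains glucose uptake, rose by 0.75 in footprints and 0.58 in total RNA, and TUBB6, a beta tubulin, by 0.65 and 0.48 (log2; all adjusted p from 0.00265 to 0.0124, edgeR). Their efficiency differences were both 0.16 ± 0.16. LAMB3, a chain of laminin-332, rose in both assays and had an efficiency difference of -0.16 ± 0.15 (log2, SE). Its footprint call was lost in 13 of the 16 fits that leave out 1 library (adjusted p up to 0.164, edgeR), and that of TUBB6 in 3. ITGA5, the fibronectin receptor subunit alpha 5, was chosen after its values were seen. Its footprints were 197, 179.9, 213 and 222 CPM with the Ile GAU guide and 177, 218, 255 and 169.5 CPM with the eGFP guide, which overlap. In total RNA ITGA5 had 51.8, 49.0, 80.3 and 48.0 CPM with the Ile GAU guide and 35.1, 29.6, 43.4 and 38.7 CPM with the eGFP guide, without overlap. It rose by 0.65 in total RNA (adjusted p = 0.0203, edgeR) and differed by 0.00 in footprints, and its efficiency difference was -0.66 ± 0.21 (log2, SE). Without replicate 1 of total RNA of the Ile GAU guide with the tRNAIleUAU construct, ITGA5 was at -0.46 in efficiency. With ARPC1A, TMX4, C1GALT1, CHST11 and RBM28 it made up the 6 genes called in total RNA whose footprints had the opposite sign.

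**Figure D3:**
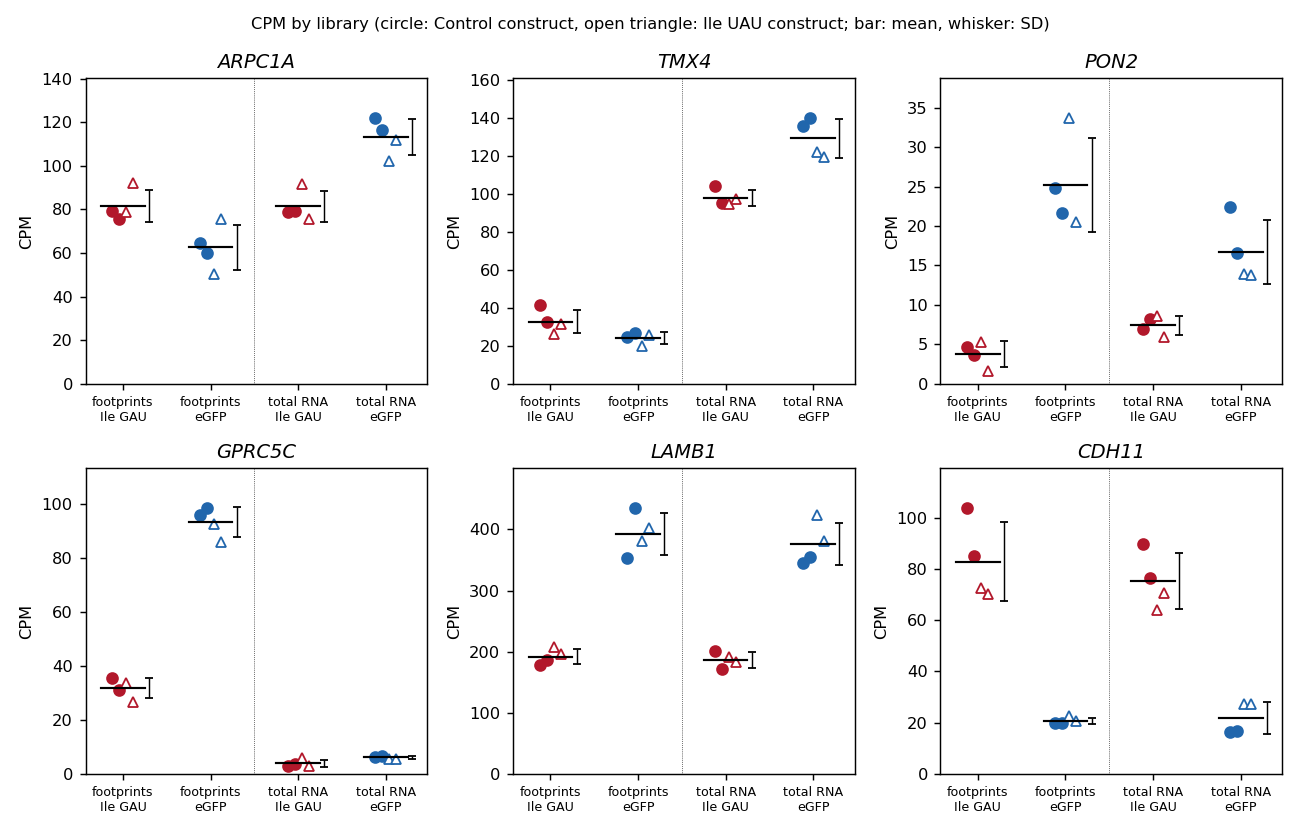
CPM of 6 genes in each library, with the Ile GAU guide (red) left of the eGFP guide (blue) in footprints (left pair) and total RNA (right pair); circles are libraries with the Control construct and open triangles those with the tRNAIleUAU construct, bars are means and whiskers SD (n = 4). LAMB1 and CDH11 show the same shift in both assays, ARPC1A and TMX4 opposite shifts, and PON2 and GPRC5C a larger shift in footprints than in total RNA.

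Most genes that fell lie on chromosome 7. Of the genes that fell, 37 of 49 in footprints and 116 of 148 in total RNA are on that chromosome, which holds 367 of the genes tested (4.58%), and 0 of the genes that rose are. The median difference of its 367 genes was -0.39 in footprints and -0.36 in total RNA, which leaves a median efficiency difference of -0.03, beside -0.02 over all genes (log2). In every one of the 8 libraries with the Ile GAU guide the chromosome's median was below the mean of its assay (-0.19 to -0.16), and in every library with the eGFP guide it was above (0.18 to 0.22). LAMB1 on chromosome 7 (chr7:107923799-108003161), the beta 1 chain of laminin, had footprints of 178, 186, 208 and 195 CPM with the Ile GAU guide and 354, 435, 382 and 402 CPM with the eGFP guide. Its total RNA was 201, 171, 191 and 182 CPM with the Ile GAU guide and 345, 355, 424 and 381 CPM with the eGFP guide. LAMB1 fell by 1.04 in footprints (adjusted p = 2.06e-05) and by 1.01 in total RNA (adjusted p = 3.12e-06, edgeR), and its efficiency difference was -0.02 ± 0.13, with a 95% interval of -0.29 to 0.24 (log2). SLC35B4, SEMA3C and TES, also on chromosome 7, fell in both assays and had efficiency differences of -0.02, 0.10 and 0.10. PODXL, a sialomucin of the cell surface, fell in both assays and had -0.12, and COPS6, a subunit of the COP9 signalosome, fell in both and had -0.23 ± 0.11. PRKAR1B, a regulatory subunit of protein kinase A on chromosome 7, had differences of -1.29 in total RNA, which passed (adjusted p = 0.00045), and -0.98 in footprints, which did not (adjusted p = 0.108, edgeR).

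PON2, a paraoxonase on chromosome 7 (chr7:95404862-95435028), fell in both assays by unequal amounts. Its footprints were 4.72, 3.60, 5.26 and 1.56 CPM with the Ile GAU guide, from 1 to 5 counts per library, and 24.8, 21.7, 33.7 and 20.5 CPM with the eGFP guide. Its total RNA was 6.93, 8.20, 8.56 and 5.91 CPM with the Ile GAU guide and 22.5, 16.6, 13.9 and 13.8 CPM with the eGFP guide. Neither assay overlapped. PON2 fell by 2.61 in footprints (adjusted p = 0.00169) and by 1.12 in total RNA (adjusted p = 0.00569), and its efficiency difference of -1.49 ± 0.44 (log2, SE) did not pass (adjusted p = 0.834, edgeR). In footprints PON2 passed the filter on low counts only through the libraries of the eGFP guide, which favours a fall.

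GPRC5C, an orphan G protein-coupled receptor on chromosome 17, was the clearest fall in footprints without a call in total RNA. Its footprints were 35.4, 31.2, 33.7 and 26.6 CPM with the Ile GAU guide and 95.9, 98.3, 92.6 and 85.6 CPM with the eGFP guide. In total RNA GPRC5C had 2.92, 3.75, 5.71 and 2.82 CPM with the Ile GAU guide and 6.31, 6.65, 5.57 and 5.63 CPM with the eGFP guide. Footprints did not overlap, while in total RNA replicate 1 of the Ile GAU guide with the tRNAIleUAU construct reached the eGFP values. GPRC5C fell by 1.54 in footprints (adjusted p = 0.000491) and differed by -0.60 in total RNA (adjusted p = 0.277, edgeR). Its efficiency difference was -0.94 ± 0.31 (log2, SE; adjusted p = 0.834 in edgeR), and -0.60 without that library. In all, 20 of the 63 genes called in footprints were not called in total RNA, among them KDELR2, IGFBP1, ITGB4, L1CAM and ETS1, and their efficiency differences ran from that of GPRC5C to 0.32 in CCDC50.

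S100A4, a calcium-binding protein linked to cell motility, was chosen after its values were seen. Its footprints were 367, 306, 251 and 242 CPM with the Ile GAU guide and 792, 819.5, 895 and 729.5 CPM with the eGFP guide. In total RNA S100A4 had 78.4, 57.4, 117 and 32.6 CPM with the Ile GAU guide and 168, 148, 93.5 and 171 CPM with the eGFP guide. Footprints did not overlap, while total RNA overlapped, with the 2 libraries of the Ile GAU guide and the tRNAIleUAU construct at its top and bottom for that guide. S100A4 fell by 1.48 in footprints (adjusted p = 0.0124) and by 1.01 in total RNA (adjusted p = 0.0448, edgeR). Its efficiency difference of -0.46 ± 0.37 (log2, SE) went to 0.05 without replicate 1 of those 2 total RNA libraries and to -0.70 without replicate 2.

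The isoleucyl-tRNA synthetases charge every isoleucine tRNA, IARS in the cytosol and IARS2 in mitochondria, and neither passed in any of the 3 tests. IARS had footprints of 605, 535, 645 and 568 CPM with the Ile GAU guide and 574, 541, 544 and 574 CPM with the eGFP guide. Its efficiency difference was 0.10 ± 0.11, with a 95% interval of -0.13 to 0.33, and that of IARS2 was 0.11 ± 0.14, with an interval of -0.19 to 0.42 (log2). Of the 29 synthetases and partners tested, 0 passed in efficiency, and their median was 0.06. TARS, the threonyl-tRNA synthetase, rose by 0.43 in footprints (adjusted p = 0.0124) and by 0.37 in total RNA (adjusted p = 0.00708, edgeR). GARS and AIMP2, a scaffold of the multisynthetase complex, fell in total RNA by 0.40 and 0.43 (adjusted p = 0.0213 and 0.0308, edgeR). Both GARS and AIMP2 lie on chromosome 7. These calls were lost in 4 (GARS) and 5 (AIMP2) of the 16 fits that leave out 1 library, and the TARS footprint call in 2.

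Among 28 gene lists, ribosomal proteins stood farthest from all genes. The median efficiency difference was -0.64 over the 26 small-subunit proteins tested of 32 listed and -0.42 over the 38 large-subunit proteins tested of 45, beside -0.02 over all genes tested (log2). All 26 and 36 of 38 were below 0, against 52.4% of all genes. None passed in any of the 3 tests. In efficiency, 3 of the 26 and 8 of the 38 had an unadjusted p under 0.05 (edgeR), all lower. Of all genes tested, 5.14% had such a p, and 2.61% had it and were lower. In total RNA the medians were 0.48 and 0.36, and in footprints -0.10 and -0.07. Ribosomal protein genes have many near-identical processed pseudogenes, and reads placed in several positions were not counted on genes, so that their levels are uncertain.

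These medians moved most with a single library. In total RNA the small-subunit genes were 0.15, -0.01, 1.23 and -0.50 above or below their mean over the 8 libraries with the Ile GAU guide (median over genes, log2), and 0.03, -0.05, -0.52 and -0.13 with the eGFP guide. The values of 1.23 and -0.50 are the 2 replicates of the Ile GAU guide with the tRNAIleUAU construct, and they enclose all other libraries except replicate 1 of the eGFP guide with that construct. The large-subunit genes followed the same order, with 0.81 and -0.24 in those 2 replicates. In footprints the small-subunit medians ran from -0.23 to 0.11 with the Ile GAU guide and from -0.02 to 0.11 with the eGFP guide, which overlap. Without replicate 1 the efficiency medians were -0.07 for both subunits, without replicate 2 they were -0.87 for the small and -0.61 for the large subunit, and without both they were -0.19 and -0.15. Without replicate 1 of the eGFP guide with that construct they were -0.47 and -0.28. Within the ribosomal proteins, RPS15 (-1.14 ± 0.53), FAU (-0.85 ± 0.40), RPL24 (-0.73 ± 0.29), RPL28 (-0.71 ± 0.26) and RPL3 (-0.31 ± 0.12) were among those of smallest p after RPL13A, with none called.

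**Figure D4:**
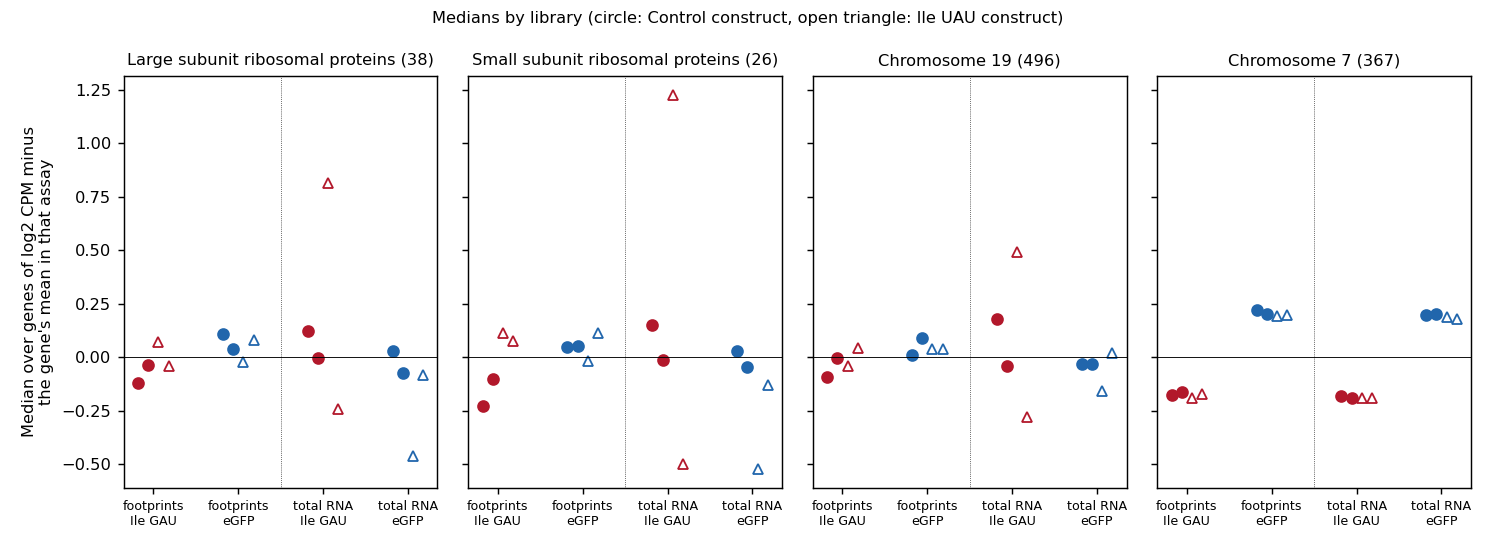
Median over genes of the log2 CPM of a library minus the gene's mean in that assay, for large-subunit and small-subunit ribosomal proteins and the genes of chromosomes 19 and 7; the Ile GAU guide (red) stands left of the eGFP guide (blue) in each assay, circles are libraries with the Control construct and open triangles those with the tRNAIleUAU construct. In total RNA, replicate 1 of the Ile GAU guide with the tRNAIleUAU construct is the highest library for ribosomal proteins and chromosome 19, replicate 1 of the eGFP guide with that construct is the lowest for ribosomal proteins and replicate 2 of the Ile GAU guide with it the lowest for chromosome 19, while the chromosome 7 medians separate the guides in both assays.

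Ribosomal protein mRNAs begin with a 5′ terminal oligopyrimidine (TOP) tract, a cap-adjacent C followed by a run of C and T through which mTORC1 and LARP1 set their translation. The starts of the ribosomal proteins named above and of the elongation factors EEF2 and EEF1A1 are shown. Those of RPL3 and RPS15 do not meet the rule for a TOP start given below. Each is given from 15 bases before to 15 bases from the RefSeq transcript start (GRCh38.p14), on the gene's strand, with the unbroken C and T run that opens with C at the start in capitals.
RPL13A, chr19:49487593-49487622, plus strand: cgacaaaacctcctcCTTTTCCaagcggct
RPL28, chr19:55385917-55385946, plus strand: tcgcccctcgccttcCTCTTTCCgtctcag
RPL24, chr3:101686704-101686733, minus strand: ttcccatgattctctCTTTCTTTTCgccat
FAU, chr11:65122120-65122149, minus strand: cgccctcgcttcttcCTCTTTCTCgactcc
RPL3, chr22:39319609-39319638, minus strand: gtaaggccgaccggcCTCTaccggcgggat
RPS15, chr19:1438381-1438410, plus strand: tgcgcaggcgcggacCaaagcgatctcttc
EEF2, chr19:3985449-3985478, minus strand: gttgacgtcagcgttCTCTTCCgccgtcgt
EEF1A1, chr6:73521018-73521047, minus strand: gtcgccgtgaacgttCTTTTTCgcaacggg

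With a TOP start defined as C at the RefSeq start followed by at least 4 bases that are each C or T, on the sense strand only, 38 of the 50 tested ribosomal protein genes with a promoter entry had one. Their efficiency differences ran from -0.92 to -0.05 (log2). RPL3 and RPS15 had none by this rule, with RPL3 (-0.31) inside that range and RPS15 (-1.14) below it. Of all 6706 tested genes with an entry, 540 had a TOP start (8.05%), against 5.14% of the 27305 symbols in the RefSeq promoter table. The 502 such genes that are not ribosomal proteins had a median efficiency difference of -0.05. It was -0.01 over the 6166 genes without a TOP start and -0.54 over the 38 ribosomal proteins with one (log2). Without replicate 1 of total RNA of the Ile GAU guide with the tRNAIleUAU construct, the median of the 502 was 0.01. Relative to each gene's mean, the 38 had total RNA medians of -0.40 to 0.89 over the Ile GAU libraries. Over the eGFP libraries they ran from -0.52 to 0.05, so that the guides overlap. Among 17 other established TOP mRNAs the median was -0.08, with EIF3F, a subunit of initiation factor eIF3, at -0.49 ± 0.17 and EEF2 at -0.31 ± 0.12, while HNRNPA1 was at 0.55 ± 0.26 and EEF1A1 at 0.31 ± 0.19. These matches describe letters at an annotated start, and the starts used in these cells were not measured.

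**Figure D5:**
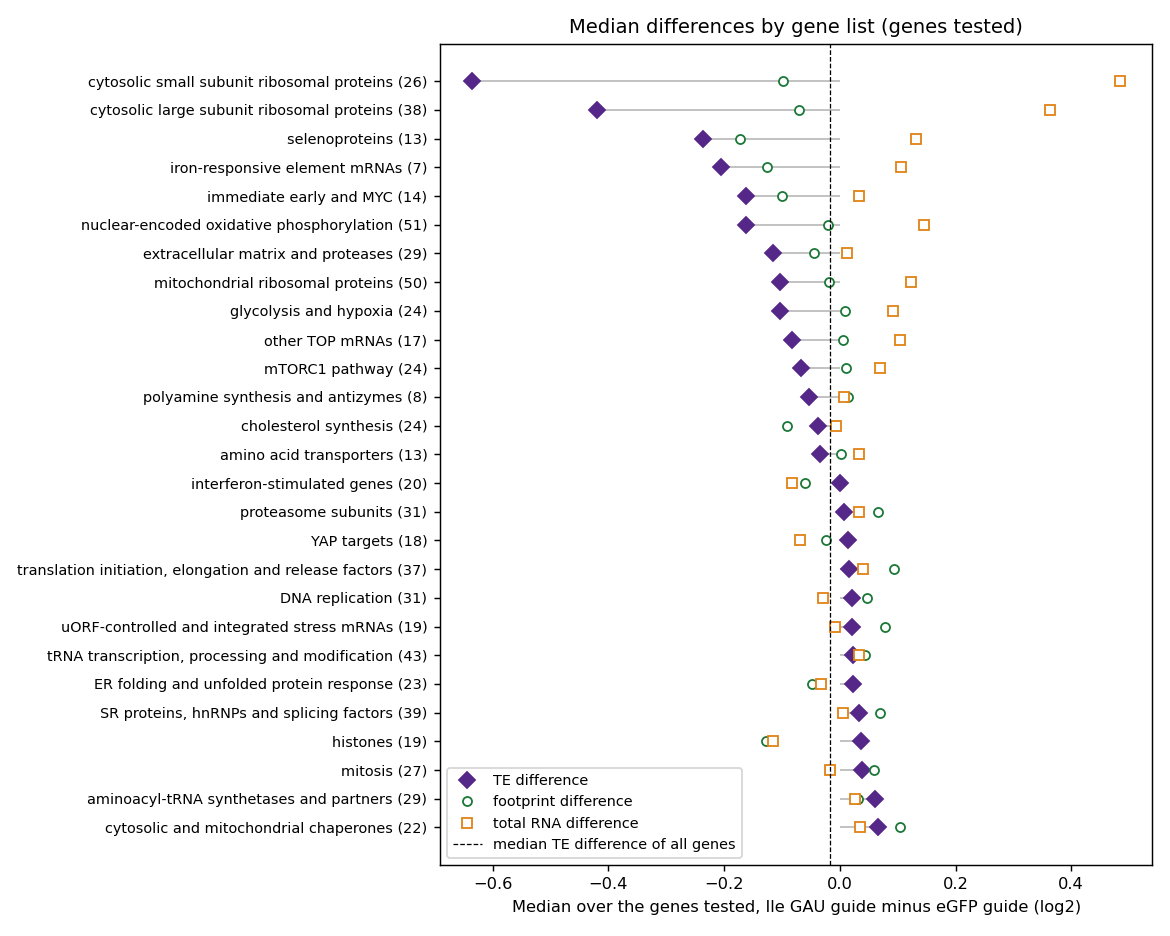
Median differences between the Ile GAU guide and the eGFP guide over the tested genes of each list (number in brackets) in translational efficiency (diamonds), footprints (circles) and total RNA (squares), on the log2 scale; the dashed line is the median efficiency difference of all genes tested. Both ribosomal protein lists lie lowest in efficiency and highest in total RNA, and no other list drawn lies below -0.24 in efficiency.

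The other lists stayed nearer to the median of all genes, and 0 of their members passed in efficiency. Factors of initiation, elongation and release (37 tested) had a median of 0.02. Within them, the initiation factors DENR and EIF4A2 were at 0.44 ± 0.19 and 0.33 ± 0.15, and the cap-binding EIF4E at -0.62 ± 0.39, none of them called. EIF3B, on chromosome 7, fell by 0.28 in total RNA (adjusted p = 0.0276, edgeR) with an efficiency difference of 0.02. The mRNAs controlled by upstream open reading frames or the integrated stress response (19 tested) had a median of 0.02, with CEBPB, a transcription factor whose isoforms arise from alternative starts, at -0.82 ± 0.30 and not called. EIF2AK1, the haem-regulated eIF2 kinase on chromosome 7, fell by 0.52 in total RNA (adjusted p = 0.00153, edgeR) with 0.19 ± 0.15 in efficiency. IFRD1, also on chromosome 7, fell by 0.75 in footprints (adjusted p = 0.0337) and by 0.62 in total RNA (adjusted p = 0.00153, edgeR), and had -0.13 ± 0.19 in efficiency. With single libraries left out, the IFRD1 footprint call was lost in 8 and the EIF3B call in 6 of 16 fits.

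The genes that make, process and modify tRNA (43 tested) had a median efficiency difference of 0.02, with 0 called in any of the 3 tests. YRDC, an enzyme of the N6-threonylcarbamoyl modification found on tRNAs that read codons starting with A, the isoleucine ones included, had the smallest p among them, with -0.78 ± 0.27 (log2, SE; not called). Amino acid transporters (13 tested) had a median of -0.03, with SLC7A5, the light chain of the large neutral amino acid carrier that takes up isoleucine, at -0.31 ± 0.16. mTORC1 pathway genes (24 tested) had -0.07. RHEB, the GTPase that activates mTORC1, lies on chromosome 7. It fell by 0.51 in total RNA (adjusted p = 0.0145, edgeR; lost in 3 of the 16 fits that leave out 1 library) with 0.09 ± 0.27 in efficiency.

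Proteins of the mitochondrial ribosome (50 tested) and nuclear-encoded subunits of oxidative phosphorylation (51 tested) had efficiency medians of -0.10 and -0.16, with total RNA medians of 0.12 and 0.15. Without replicate 1 of total RNA of the Ile GAU guide with the tRNAIleUAU construct they were 0.04 and 0.03. The selenoproteins (13 tested), which need a recoded UGA codon, had a median of -0.24, and iron-responsive element mRNAs (7 tested) had -0.21. Chaperones (22 tested) had 0.07, with BAG3 lower in both assays (-0.38 in footprints, adjusted p = 0.0364, and -0.40 in total RNA, adjusted p = 0.0102, edgeR) and 0.02 ± 0.12 in efficiency. CCT4, a subunit of the TRiC chaperonin, rose by 0.35 in total RNA (adjusted p = 0.0262, edgeR) with a footprint difference of 0.34 and an efficiency difference of 0.00. Proteins of folding in the endoplasmic reticulum (23 tested) had 0.02, and PDIA4, a disulfide isomerase on chromosome 7, fell by 0.40 in both assays with 0.00 ± 0.12 in efficiency. With single libraries left out, the footprint calls of BAG3 and PDIA4 were lost in 10 and 9 of 16 fits, and the total RNA calls of CCT4 and BAG3 in 4 and 1.

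Genes of the extracellular matrix and its proteases (29 tested) had the most calls in single assays. In footprints 2 rose and 3 fell (0.786% of all genes were called), in total RNA 3 rose and 4 fell (2.27% of all genes), and in efficiency 0 passed, with a median of -0.12. TIMP3, an inhibitor of metalloproteinases, rose by 0.36 in footprints and 0.39 in total RNA, with -0.03 ± 0.11. The TIMP3 footprint call was lost in 13 of the 16 fits that leave out 1 library (adjusted p up to 0.200, edgeR), and the total RNA call in 2. LAMA3, another chain of laminin-332, fell by 0.59 in total RNA (adjusted p = 0.00569, edgeR), with an efficiency difference of -0.03 ± 0.23. COL13A1, a transmembrane collagen, fell by 0.48 in footprints (adjusted p = 0.0366, edgeR), with -0.30 ± 0.14 in efficiency, and lost that call in 9 of those fits. The interferon-stimulated genes IFIT1, IFIT2 and IFIT3 fell in total RNA by 0.64, 0.54 and 0.48 (adjusted p = 0.00423, 0.0141 and 0.0210, edgeR), with footprint differences of -0.47, -0.38 and -0.23 that did not pass and efficiency differences of 0.17, 0.16 and 0.24. The IFIT2 call was lost in 1 and the IFIT3 call in 4 of those fits. The list (20 tested) had an efficiency median of 0.00.

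In lists of the cell cycle the efficiency medians were 0.02 for DNA replication (31 tested), 0.04 for mitosis (27 tested) and 0.04 for histones (19 tested). MCM7, a subunit of the replicative helicase on chromosome 7, fell in footprints by 0.41 (adjusted p = 0.0370, edgeR), with -0.11 ± 0.12 in efficiency. H2AFV, a histone H2A variant on chromosome 7, fell in total RNA by 0.49 (adjusted p = 0.00117, edgeR), with 0.24 ± 0.13 in efficiency. CDC6, which loads that helicase, was at 0.34 ± 0.15 and not called. Of the YAP targets (18 tested, median 0.01), CYR61, a matricellular protein, fell by 0.59 in footprints and 0.46 in total RNA (adjusted p = 0.0124 and 0.0226, edgeR), with -0.13 ± 0.15 in efficiency. With single libraries left out, the MCM7 call was lost in 11 of 16 fits, and those of CYR61 in 3 (footprints) and 4 (total RNA).

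Cholesterol synthesis (24 tested) had an efficiency median of -0.04, glycolysis and hypoxia (24 tested) -0.10, and immediate early genes with MYC (14 tested) -0.16. CYP51A1, the sterol demethylase on chromosome 7, fell by 0.49 in total RNA (adjusted p = 0.00651, edgeR), with -0.01 ± 0.17 in efficiency. SCAP, the escort of the SREBP transcription factors, stood at -0.55 ± 0.22 and JUND, an AP-1 factor, at -0.54 ± 0.24, neither called. Splicing factors (39 tested) had a median of 0.03, with SRSF3 at 0.32 ± 0.12 and HNRNPA2B1 at 0.24 ± 0.09, not called. TRA2A, on chromosome 7, was lower in total RNA by 0.44 (adjusted p = 0.0210, edgeR; lost in 3 of the 16 fits that leave out 1 library). The CYP51A1 call was lost in 1 of them. Proteasome subunits (31 tested) had 0.01 and polyamine genes (8 tested) -0.05, with 0 called in any test, and the list of snoRNA host genes had 1 gene tested, TAF1D, at 0.09.

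By chromosome, the median efficiency difference was lowest on chromosome 19, at -0.25 over 496 genes, with 0.18 in total RNA and -0.06 in footprints, and highest on chromosome 4, at 0.12 over 307 genes (log2). The chromosome 19 median was 0.18, -0.04, 0.49 and -0.28 in the total RNA libraries of the Ile GAU guide, relative to each gene's mean, and -0.03, -0.03, -0.16 and 0.02 in those of the eGFP guide. Its efficiency median was -0.03 without the library at 0.49 and -0.38 without the one at -0.28. The span of the gene from start to end followed the same library. When the tested genes were ranked by span and cut into 5 bins of equal size, the bin of the shortest genes (median 5.94 kb) had a median efficiency difference of -0.20 and the bin of the longest (median 153 kb) had 0.07, and without that library the values were 0.02 and 0.03. Isoleucine codon content was not analysed here.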

How the data were processed

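Ribosome footprints and total RNA of MDA-MB-231 cells were compared over 16 libraries, 4 per assay and guide. Each deposited table gives, for a gene symbol, how many reads HTSeq placed on it (raw counts). The submitters' processing notes name cutadapt 1.17 and STAR 2.5.2a, with hg38 as the build. Annotation, strand setting and HTSeq version are not given in the sources used here. Summary lines of HTSeq were dropped, and symbols missing from a footprint file got a count of 0. Reads placed in several positions made up 97.0 to 98.8% of what HTSeq saw in footprints and 97.2 to 98.1% in total RNA, and were not counted on genes.

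Low genes were dropped where filterByExpr, at a minimum count of 10 and a total of 15, refused them in either assay. A single edgeR 4.0.16 quasi-likelihood fit (R 4.3.3) took all libraries, TMM-scaled per assay, with guide and construct as terms within assay. The efficiency difference is the guide difference in footprints minus that in total RNA, and p-values were Benjamini-Hochberg adjusted over 8012 genes, with a threshold of 0.05. CPM values are counts per 1000000 counts on genes after TMM scaling within the assay. Alternatives used DESeq2 1.42.0, limma 3.58.1, other scalings, filters and terms, libraries thinned to the shallowest, and each library left out. The fits were tested on simulated data. Counts are reads and not molecules, so they carry counting and library error alike.

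Genes named are the 20 of smallest p in efficiency, the 5 of smallest p per direction in footprints and in total RNA, called members of the lists with at most 4 more per list by p, and IARS and IARS2; ITGA5 and S100A4 were chosen after their values were seen. The members and lists were chosen with earlier results of these data known. Chromosomes, transcript starts and sequences are from RefSeq tables of GRCh38.p14. The replicate numbers were not taken as pairs, since correlations of deviations between same-numbered libraries were not all above 0.1. Some named genes are not reported here. A planned grouping of genes by isoleucine content was not run, since no coding or protein sequences were used here.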

Additional observations from a re-analysis of the deposited data

Results flagged for a closer look

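In 4 of 136 sets of 4 libraries, over 34 genes, 1 library lay far from the other 3; chance alone gives such a gap in about 1 in 20 sets. PTGES3 footprints were 132 CPM in replicate 1 of the eGFP guide with the tRNAIleUAU construct, the shallowest library, against 91.6 to 97.5 CPM in the others with that guide. GPD1L total RNA was 39.8 CPM in replicate 1 of the eGFP guide with the tRNAIleUAU construct, against 30.3 to 31.5 CPM. TNFAIP2 footprints were 54.7 CPM in replicate 1 of the Ile GAU guide with the tRNAIleUAU construct, against 38.9 to 40.8 CPM. SEMA3C footprints were 211 CPM in replicate 1 of the Ile GAU guide with the Control construct, against 142 to 152 CPM. The causes were not tested.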

How the results depend on the processing

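Translational efficiency by guide gave 0 calls under every alternative run and without any single library (295 to 1270 genes at an unadjusted p under 0.05). The replicate numbers were not taken as pairs: deviations of same-numbered libraries correlated at -0.04 to 0.02 between footprints and total RNA of a condition, -0.04 to 0.06 within footprints and -0.57 to 0.47 within total RNA, and a replicate block, by pairs or by number, gave 0 efficiency calls too. Under the block by footprint and RNA pairs, the single-assay differences could not be estimated.

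The 63 calls in footprints became 18 with footprint libraries thinned to the shallowest, 16 without chromosome 7 genes, 205 with each assay in its own fit and 171 without both total RNA libraries of the Ile GAU guide with the tRNAIleUAU construct; with single libraries left out they ran from 18 to 130. The 182 calls in total RNA became 102 at 50 or more counts on average, 40 with all libraries thinned and 33 without chromosome 7 genes, and ran from 94 to 881 with single libraries left out. The highest value came without replicate 2 of those total RNA libraries (320 without replicate 1). Within the tRNAIleUAU construct efficiency calls ran from 0 to 616, and for the difference between constructs from 0 to 99.

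The chromosome 7 efficiency median of -0.03 became -0.0132 with TMM over all libraries, -0.00958 without a filter, -0.00768 at 50 or more counts, -0.0482 with all libraries thinned and 0.0106 without both of those libraries, and ran from -0.0427 to 0.0178 with single libraries left out. The ribosomal protein medians ran from -0.607 to -0.0749 (large subunit) and -0.871 to -0.0717 (small subunit), and were -0.15 and -0.19 without both libraries. The causes were not tested. Footprint calls were 18 with only the footprint libraries thinned and 43 with all libraries thinned, and the reason was not tested. Footprint libraries detected 10974 to 11984 genes.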

Other observations

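KRT5, a keratin of basal epithelium, had 23 counts over the footprint libraries and 0 over the total RNA libraries, although total RNA was sequenced more deeply.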
